A study of Mus musculus with 6 samples.

Results

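The mitochondrial respiratory chain and ATP synthase genes were followed in an N4-acetylcytidine (ac4C) RNA pull-down of 32D cells. They were chosen by gene symbol alone, as the rows of the authors' peak list whose symbol begins with Nduf, Uqcr, Cox4 to Cox8, Atp5 or mt-, or is Sdha to Sdhd, Cyc1 or Cycs. The rule uses no values, but the family was chosen with earlier results of these data known. The rule found 28 genes with 35 summits among the 1485 genes and 1876 summits of the list. 32D is a mouse bone marrow line that depends on interleukin 3, and all 6 libraries came from wild-type 32D cells grown with 10 ng/mL of it. There were 2 libraries made with the ac4C antibody, 2 made with control IgG and 2 of input RNA, all from poly(A) RNA. The peaks were called once, on both ac4C libraries merged. Values of the single libraries were not analysed here, and none of the folds below has a replicate error.

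The respiratory chain passes electrons from NADH and succinate to oxygen and pumps protons across the inner mitochondrial membrane. Complex I takes electrons from NADH and complex II from succinate. Complex III hands them to cytochrome c, and complex IV passes them to oxygen. ATP synthase, also called complex V, lets the protons flow back and makes ATP. Most subunits are encoded in the nucleus and imported, whereas a few of the most hydrophobic ones are encoded in mitochondrial DNA and made inside the organelle. The ac4C mark is written on RNA by the acetyltransferase Nat10, and the study's title ties Nat10 to RNA stability and the fate of blood stem cells.

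The value of a summit is the authors' fold enrichment, the number of pull-down fragments over the summit plus 1, divided by a background plus 1. That background was 1.11 fragments for every summit. A fold therefore converts into a number of overlapping fragments, from 5 to 548 over the list with a median of 23. The 95% interval given with a fold is the exact Poisson interval of that number and covers counting error only. The −log10 p of a summit follows from the same number and background, so it is no evidence beyond the fold. The fold has no term for the abundance of the transcript, for input or for IgG, so tall summits of abundant mRNAs and strong pull-down cannot be told apart. A gene with no row is called unlisted, which does not show that it lacks ac4C or is not expressed, and a listed summit alone is no proof of the mark.

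The listed genes of the family had tall summits. The median of their highest folds was 36.1 (quartiles 16.3 and 54.2; 28 genes), beside 12.3 (quartiles 7.12 and 20.9) for the 1457 other listed genes. Of the 28 genes, 24 lay above 12.3, the median of all listed genes, and 4 below it. The 75th percentile of all listed genes was a fold of 21.4; 25.1% of them reached it by construction, against 19 of the 28 family genes, or 67.9%. The 90th percentile, 36.1, was reached by 10.1% of all listed genes and by 14 of the 28. The family member just above the 75th percentile was Ndufa4 at 26.6, and the one just below was Ndufa9 at 20.4. These are descriptions of 1 pooled list, and no difference between gene groups was tested.

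**Figure D1:**
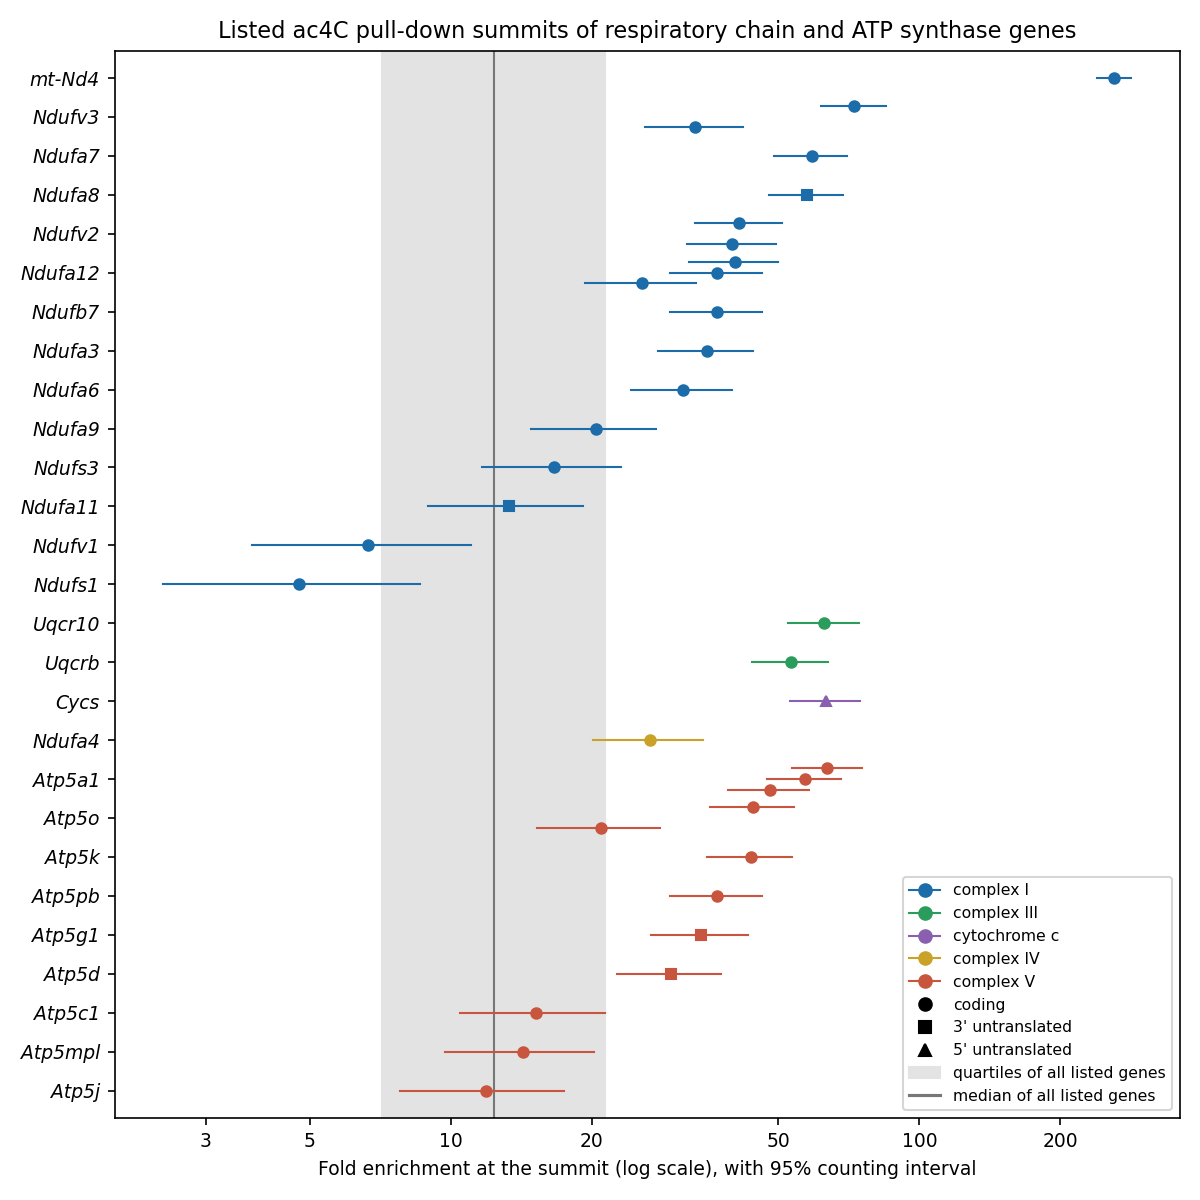
Fold enrichment of the listed summits of the genes named in the text, on a log scale, with the 95% Poisson counting interval of each; colour gives the complex and symbol shape the transcript region. The grey band spans the quartiles of the highest fold over all 1485 listed genes; mt-Nd4 stands alone at 260.6, and Ndufv1 and Ndufs1 lie lowest among those drawn.

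Complex I held 15 of the 28 genes. The mitochondrially encoded core subunit mt-Nd4 (ENSMUSG00000064363), part of the proton-pumping membrane arm, had the highest fold of the whole list, 260.6 (95% interval 239 to 283; 548 fragments), at nt 1090 of ENSMUST00000082414 with a −log10 p of 1244. Its interval did not overlap that of any other gene of the family. The letter in its peak name marks the fifth summit of that peak, and the others are not in the list. It was the only listed gene of the 13 protein genes of mitochondrial DNA, or 7.69%, near the 6.71% of all protein-coding genes.

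The nuclear genes of the matrix arm, which binds NADH and carries the electrons, were listed for 10 of 16 subunits. The highest was Ndufv3, an accessory subunit beside the NADH-binding site, with folds of 72.6 (61.6 to 85.0) at nt 191 of ENSMUST00000064798 and 33.2 (26.0 to 41.9) at nt 113 of ENSMUST00000046288. The intervals of these 2 summits, on different transcripts of 1 gene, did not overlap. Their −log10 p were 263 and 97.5. Ndufa7, another accessory subunit, had a fold of 58.9 (49.0 to 70.1) at nt 123 with a −log10 p of 202.

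Ndufa12, an accessory subunit of the same arm, had 3 coding summits. They had folds of 40.3 and 25.6 at nt 143 and nt 308 of ENSMUST00000020209, and of 37.0 at nt 112 of ENSMUST00000179990, with −log10 p of 125, 69.5 and 112. Their intervals overlapped one another. The gene table names a pseudogene of Ndufa12, so reads could be shared between the copies. Ndufa6 followed with 31.3 at nt 62 and a −log10 p of 90.3. Ndufa9, which sits where the arms meet, had 20.4 (14.8 to 27.4) at nt 446.

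The core subunits of the matrix arm include the carriers of the flavin and of iron-sulfur clusters. Ndufv2, with an iron-sulfur cluster, had folds of 41.3 and 39.9 at nt 613 and nt 856 of ENSMUST00000024909, 243 nt apart, with −log10 p of 129 and 123. Ndufs3 had a fold of 16.6 (11.7 to 23.0). Ndufv1, the flavin-binding subunit, had 6.65 (3.76 to 11.0), and Ndufs1, which holds several iron-sulfur clusters, had 4.75 (2.43 to 8.58). The summits of Ndufv1 and Ndufs1 rested on 13 and 9 fragments. The 5 listed accessory genes of this arm ranged from 20.4 to 72.6 with a median highest fold of 40.3. The core genes Ndufs3, Ndufv1 and Ndufs1 lay below all 5 of them, and Ndufv2 did not, though the interval of Ndufs3 overlapped that of Ndufa9. This split by role was drawn after the values were seen and was not tested.

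In the membrane arm, 4 of 20 nuclear subunit genes were listed, all accessory. Ndufa8, on the intermembrane-space side, had a fold of 57.4 (47.7 to 68.6) in the 3' untranslated region, at nt 700, with a −log10 p of 196. Ndufb7 had 37.0 (29.3 to 46.2) at nt 150 with a −log10 p of 112, and Ndufa3 had 35.1 (27.6 to 44.0) at nt 45 with a −log10 p of 105. Ndufa11 had a fold of 13.3 (8.92 to 19.1) in the 3' untranslated region, the lowest of these 4. Ndufb7 was the only one listed of 13 Ndufb genes, or 7.69%, near the 6.71% of all protein-coding genes. Of the 12 Ndufa genes of complex I, 7 were listed, or 58.3% (27.7% to 84.8%). The 8 Nduf genes named as complex I assembly factors, Ndufaf1 to Ndufaf8, were all unlisted. The interval of their share reaches 36.9% and includes the 6.71%.

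**Figure D2:**
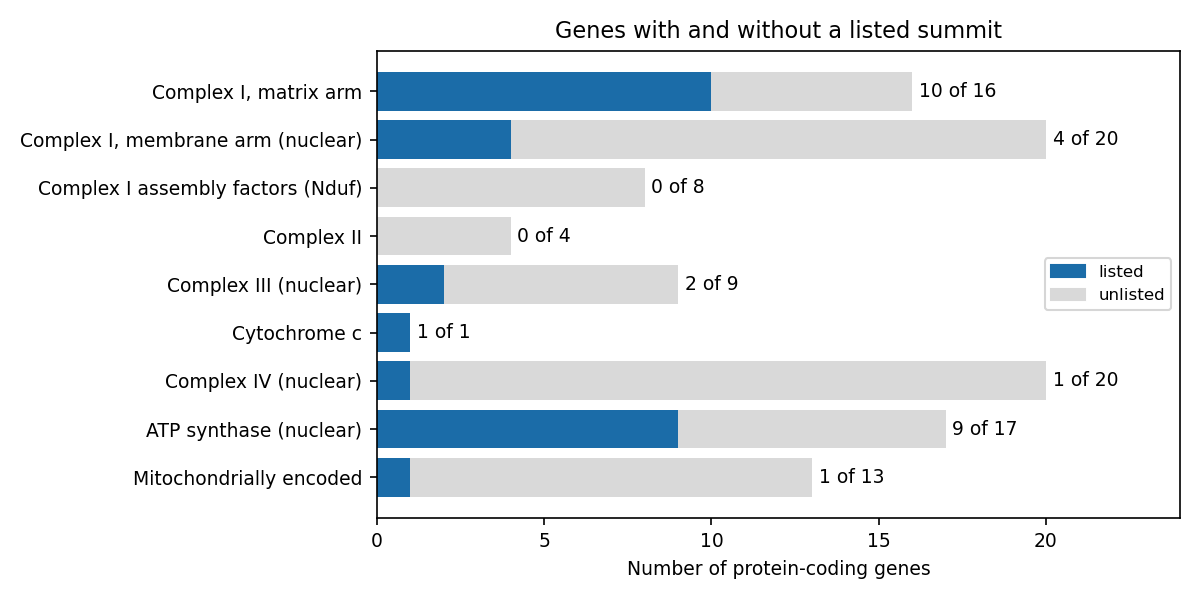
Number of protein-coding genes of each group with a listed summit (blue) and without one (grey), with listed of all genes at the end of each bar; Ndufab1 and the gene copies Ndufb4b and Ndufb4c, all unlisted, are not drawn. Listed genes were most of the complex I matrix arm (10 of 16) and of the nuclear ATP synthase genes (9 of 17). Complex IV had 1 of 20 nuclear genes listed, or 5.0%, near the 6.71% of all protein-coding genes.

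Complex III had 2 of its 9 nuclear genes listed, both small accessory subunits with tall coding summits. Uqcr10 had a fold of 62.7 (52.5 to 74.3) at nt 152 with a −log10 p of 219, and Uqcrb had 53.2 (43.8 to 63.9) at nt 106 with a −log10 p of 178. The catalytic genes Cyc1, for cytochrome c1, and Uqcrfs1, for the Rieske iron-sulfur protein, were unlisted. So were Uqcrc1 and Uqcrc2, large proteins of the complex that are counted as accessory here. Cycs, the gene of cytochrome c, had the only 5' untranslated summit of the family, with a fold of 63.1 (52.9 to 74.8) at nt 101 of ENSMUST00000161401 and a −log10 p of 221. The gene table names 3 pseudogenes of Cycs, so reads could be shared with them.

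Complex IV was listed through 1 gene only, 1 of its 20 nuclear genes or 5.0%. This share is near the 6.71% of all protein-coding genes. Ndufa4, named as a complex I subunit but known to belong to complex IV, had a fold of 26.6 (20.1 to 34.5) at nt 180, in coding sequence, and a −log10 p of 72.9. All 18 Cox4 to Cox8 genes were unlisted. These unlisted genes include the broadly used subunits Cox4i1, Cox5a, Cox5b, Cox6c, Cox7c and Cox8a as well as 7 isoforms known from muscle, lung or testis. The mitochondrially encoded catalytic genes mt-Co1, mt-Co2 and mt-Co3 were unlisted too. Complex II, which is also an enzyme of the citric acid cycle, had no listed gene among its 4 (interval up to 60.2%). The intervals for the Cox genes and for complex II include the 6.71%.

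ATP synthase had 9 of 17 nuclear genes listed, with highest folds from 11.9 to 63.6 and a median of 34.2. In the catalytic head and central shaft, 3 of 5 genes were listed. Atp5a1, the alpha subunit, had 3 coding summits, with folds of 63.6 at nt 890 and 47.9 at nt 1183 of ENSMUST00000114748 and 57.0 at nt 981 of ENSMUST00000026495. Their −log10 p were 223, 156 and 194, and their intervals overlapped one another. Atp5d, the delta subunit of the central shaft, had a fold of 29.4 (22.6 to 37.7) at nt 713 in the 3' untranslated region with a −log10 p of 83.2, and Atp5c1, the gamma subunit of that shaft, had 15.2 (10.5 to 21.4). Atp5b, the catalytic beta subunit, and Atp5e were unlisted.

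The peripheral stalk, which holds the head still while the shaft turns, had 3 of 4 genes listed. Atp5o had folds of 44.1 (35.7 to 54.0) at nt 166 of ENSMUST00000023677 and 20.9 (15.2 to 28.0) at nt 341 of ENSMUST00000154661, with −log10 p of 140 and 53.0. As for Ndufv3, the summits lay on different transcripts and their intervals did not overlap. Atp5pb had 37.0 (29.3 to 46.2) at nt 932 with a −log10 p of 112, and Atp5j had 11.9 (7.77 to 17.4).

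In the proton-conducting membrane part, Atp5k had a fold of 43.7 (35.3 to 53.5) at nt 133 with a −log10 p of 139, and Atp5mpl had 14.2 (9.69 to 20.2). Of the 3 genes that encode the c ring subunit, Atp5g1 was listed, with 34.2 (26.8 to 43.0) at nt 603 in the 3' untranslated region and a −log10 p of 101. Atp5g2 and Atp5g3 were unlisted. Pseudogenes are named in the gene table for Atp5k, Atp5pb and Atp5c1, so their reads could be shared with copies. Only pseudogenes named after their gene were counted. Copies under other names were not looked for, for mt-Nd4 or any other member.

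The 28 genes were ordered by highest fold. Of the 27 pairs of neighbours in this order, 26 had overlapping counting intervals and only mt-Nd4 and Ndufv3 did not. Neighbours in a sorted order are the closest values, so their overlap does not show a continuous series. The family held 10 of the 100 listed genes with the highest folds. At the other end, Ndufv1 and Ndufs1 lay at or below the lower quartile of all listed genes, 7.12.

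Over all complexes, 28 of 111 protein genes of the family were listed, or 25.2% (exact Clopper-Pearson 95% interval 17.5% to 34.4%), and 83 were unlisted. For nuclear genes alone the count was 27 of 98, or 27.6%. Of all 21900 protein-coding genes in the gene table, 6.71% were listed, a background that includes genes these cells may not express. Nuclear core subunits were listed for 12 of 25 genes, or 48.0% (27.8% to 68.7%), and nuclear accessory subunits for 14 of 53, or 26.4% (15.3% to 40.3%). The median highest folds ran the other way, at 23.0 for the listed core genes and 38.7 for the listed accessory genes. All listed nuclear core genes belonged to the complex I matrix arm or ATP synthase, so role and complex are mixed here. This contrast includes the matrix-arm genes whose split was drawn after the values were seen, and it was not tested. The list places every summit in a coding or untranslated part of an mRNA, so the 24 rRNA and tRNA genes of the mitochondrial chromosome could hardly have had a row, and none did.

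The summits of the family lay mostly in coding sequence. Of 35 summits, 30 were coding, or 85.7% (exact Clopper-Pearson 95% interval 69.7% to 95.2%), against 870 of 1841 summits of other genes, or 47.3% (45.0% to 49.6%). The 3' untranslated region held 4, those of Ndufa8, Ndufa11, Atp5d and Atp5g1, or 11.4%, against 45.6% of other summits. All 14 matrix-arm summits of complex I were coding, as were those of Uqcr10, Uqcrb and Ndufa4. With the strongest summit of each gene the coding share was 82.1%, against 45.3% for other genes. The lengths of the coding and untranslated parts of these transcripts were not measured, and their part in these shares was not tested.

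Many of the coding summits lay close to the start of the transcript. Within its first 200 nt, a limit chosen after the positions were seen, lay 13 of the 30 coding summits, or 43.3% (25.5% to 62.6%), against 12.9% of coding summits of other genes. With a limit of 100 nt the count was 2 of 30, or 6.67%, against 3.45%. All coding summits of the family lay between nt 45 and nt 1208, with a median of nt 324.5. Those of other genes reached nt 8999, with a median of nt 735.5. These are absolute distances, transcript lengths were not measured, and their part in these shares was not tested. The 13 within 200 nt belonged to 11 genes, among them Ndufa3 at nt 45, Ndufa6 at nt 62, Uqcrb at nt 106, Ndufa7 at nt 123, Atp5k at nt 133 and Uqcr10 at nt 152. Their folds ran from 26.6 to 72.6 with a median of 40.3, whereas the other 17 coding summits spanned 4.75 to 260.6, with 20.9 as the median. Over all genes of the list, coding summits had a median of 12.3 within 200 nt and 10.4 beyond. The early summits of the family thus had no low values, while the later ones included both the highest and the lowest.

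**Figure D3:**
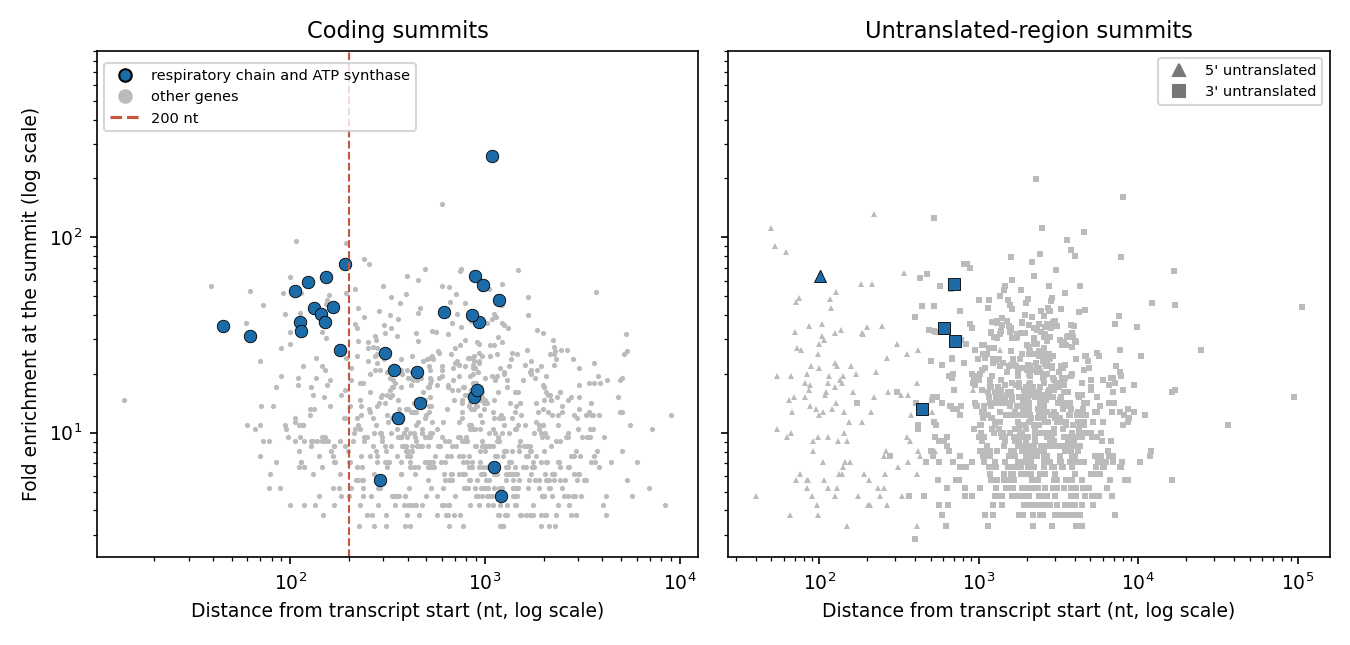
Fold enrichment against the distance of the summit from the transcript start, both on log scales, for coding summits (left) and untranslated-region summits (right); blue symbols are the 35 family summits and grey ones those of other genes. Left of the dashed line at 200 nt lie 13 family summits, all at folds of 26.6 or more; the single highest point is mt-Nd4.

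Several summits per peak were common. Of the 32 peaks of the family, 22, or 68.8%, carried a letter that marks a peak with more than 1 summit, against 24.4% of all 1824 peaks in the list. The letters imply at least 54 summits in these 22 peaks, of which 25 are listed. For all lettered peaks of the list, at least 1130 are implied and 497 listed. The shares and highest folds given here cover listed summits only. Only 5 of the 28 genes had more than 1 listed summit, namely Atp5a1, Atp5o, Ndufa12, Ndufv2 and Ndufv3, or 17.9%, beside 20.1% of all listed genes. In 4 of them, all but Ndufv2, the summits lay on more than 1 transcript, so summits of 1 gene may be 1 site.

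Other multi-subunit assemblies served as a frame, chosen by symbol in the same way. Proteasome genes (Psm) were listed for 14 of 51, or 27.5%, with a median highest fold of 19.7 (quartiles 11.0 and 36.3) and 62.5% of 16 summits in coding sequence. The V-ATPase (Atp6), the proton-pumping relative of ATP synthase in lysosomes, had 4 of 26 genes listed, or 15.4%, with a median of 16.9; its highest was Atp6v1f at 29.4. Mitochondrial ribosome and import genes (Mrpl, Mrps, Timm and Tomm) had 17 of 104, or 16.3%, with a median of 12.8 (quartiles 8.54 and 19.5) and 47.8% of 23 summits in coding sequence. Their highest, Timm8b at 36.5, was close to the respiratory chain median of 36.1. The 75th percentile of fold was reached by 6 of the 14 listed proteasome genes, 1 of the 4 V-ATPase genes and 4 of the 17 mitochondrial ribosome and import genes. These differences were not tested.

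**Figure D4:**
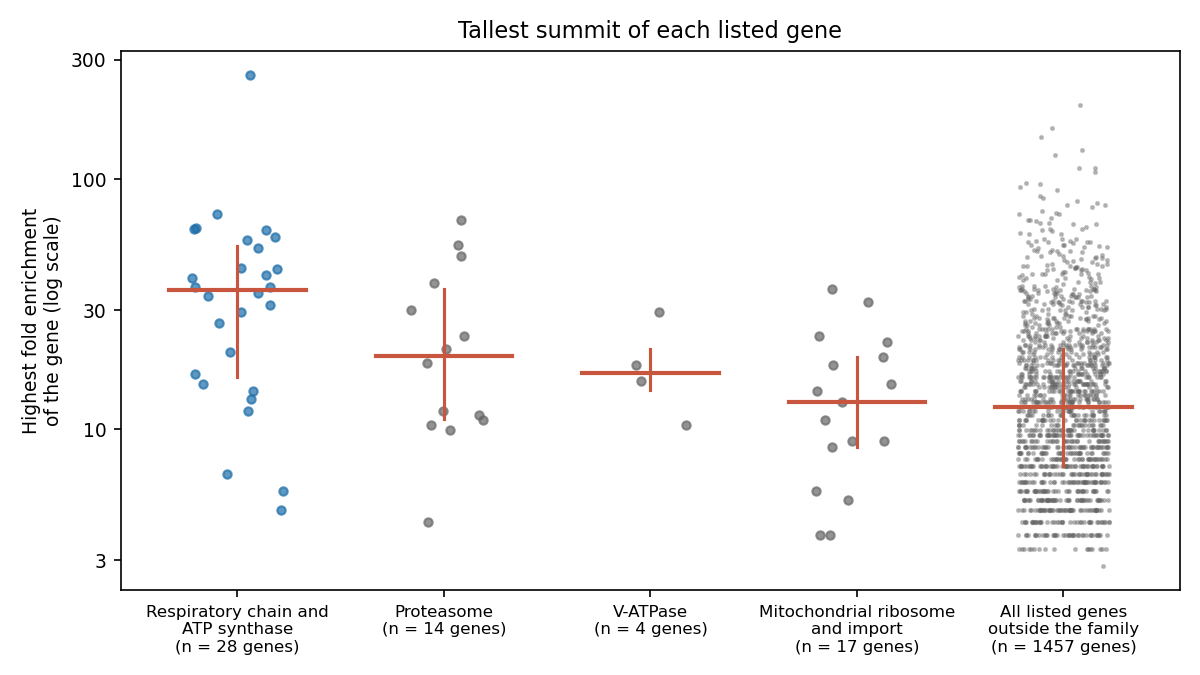
Highest fold enrichment of each listed gene, on a log scale, for the respiratory chain and ATP synthase (28 genes), the 3 families set beside it and the 1457 other listed genes; horizontal bars are medians and vertical bars span the quartiles. The medians were 36.1, 19.7, 16.9, 12.8 and 12.3 from left to right.

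Of 104 genes on 6 lists that serve oxidative phosphorylation outside the symbol rule, 10 were listed, or 9.62%, with a median highest fold of 15.7. This share is near the 6.71% of all protein-coding genes. Assembly factors had 4 of 45, or 8.89%, all in coding sequence. Uqcc2, needed for complex III, had a highest fold of 45.6 (37.0 to 55.6), Cox14, needed for complex IV, 41.8 (33.6 to 51.4), Dmac1, needed for the complex I membrane arm, 27.5 (21.0 to 35.5), and Cox17, a copper chaperone for complex IV, 13.8 (9.31 to 19.7). Ubiquinone synthesis had 1 of 13 genes, Coq2 at 15.7, and the list of carriers and channels 1 of 9, Vdac2 of the outer membrane at 8.54. Of 10 nuclear regulators, Yy1 at 26.1, Myc at 15.7, Hif1a at 9.02 and Gabpa at 6.17 were listed. The 15 genes of mitochondrial DNA expression, among them Tfam, Polrmt and Lrpprc, and the 12 genes of cristae and the membrane scaffold, among them Immt and Opa1, were unlisted.

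Of 14 myeloid and interleukin 3 receptor markers, 5, or 35.7%, were listed, namely Spi1, Fcer1g, Csf2rb2, Csf2rb and Prtn3. Their highest folds ran from 4.27 to 53.6 with a median of 10.4, beside 12.3 for all listed genes. The unlisted ones were Cebpa, Cebpe, Mpo, Elane, Ctsg, Il3ra, Kit, Ptprc and Cd34. Beside these markers, 6.71% of all protein-coding genes were listed. Of 19 markers of other cell types, 3 were listed, or 15.8%: Pf4 at 125, Hba-a1 at 41.8 and Mbp at 6.65. Expression was not measured, so this does not gauge how many cells of a type were present, and the part of other cells in the family's values was not tested.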

How the data were processed

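Per the labels, poly(A) RNA of 32D cells was used for 2 ac4C, 2 IgG and 2 input libraries; nothing says whether libraries came from separate cultures. Reads were processed with cutadapt, Bowtie2 and MACS2 on GRCm39, per the submitters' processing notes; for versions, parameters, the control used and the filter behind the list, nothing is given in the sources used here. The peak list deposited by the authors gives, per the file headers, a fold enrichment (a ratio), −log10 p-values and −log10 q-values, the summit position on an Ensembl transcript and its region. Its 1824 peak numbers are 5.42% of the highest, 33651, so most numbered peaks are not analysed here.

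Every fold was a whole multiple of 0.475 (tolerance 0.01 of a step), which gives the background and the fragments per summit. A Poisson tail on those fragments returned each deposited −log10 p to within 0.000474%. The step search was tested on simulated data. Depth per library is unknown.

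Each gene was given its highest fold. Family sizes came from protein-coding genes of a RefSeq table (GRCm38.p6, names only; 1475 of 1485 listed symbols were in it), and complexes and arms from general knowledge. Every listed member was named except 1 whose own values are not reported here and which is counted only in totals and medians, with position and −log10 p for mitochondrially encoded members and those at or above the 75th percentile of fold. Members and lists were chosen with earlier results of these data known. No sequence was used. Python 3.11.15, pandas 2.3.3, NumPy 2.4.6, SciPy 1.17.1 and matplotlib 3.10.9 were used.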

Additional observations from a re-analysis of the deposited data

How the results depend on the processing

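The median of the family's highest folds lay between 34.3 and 37.0 under 7 alternatives (mean fold per gene, summits in place of genes, 2 stricter lists, coding summits alone, without mt-Nd4, without assembly factors), and its ratio to other listed genes between 1.90 and 3.39, against 2.92. The lowest ratio came from the list limited to folds at or above the median, a selection on the fold itself. The list limited to q-values below 1e-05 and the omission of assembly factors kept all 28 members, so the family median could not change. Nor could that omission change the 19 genes at or above the 75th percentile. The share of listed family genes lay between 22.5% and 27.7%, the highest without tissue isoforms and gene copies, an alternative chosen after seeing the data. At or above the 75th percentile of fold were 18 to 20 genes, and 14 at or above the 90th percentile. The share of coding summits was 82.1% to 84.4%. The share of coding summits near the transcript start depends on the limit: within 100 nt it was 6.67% against 3.45% for other genes, within 300 nt 46.7% against 22.2%, and at the strongest summit of each gene within 200 nt 47.8% against 12.9%. These 3 settings were added with the data in view. No paired analysis was possible because the list pools the replicates, and for the same reason no replicate could be left out.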
